A study of Mus musculus with 48 samples.

Results

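The matrix metalloproteases (MMPs), the ADAMTS proteases, the ADAMTS-like proteins and the tissue inhibitors of metalloproteases (TIMPs) were followed in the aorta of mice lacking elastin, fibulin-4 or lysyl oxidase. Members were taken by gene symbol alone, as every MMP, ADAMTS, ADAMTS-like and TIMP symbol found on probe sets assigned to a single gene. The families themselves were chosen with earlier results of these data known. Where a gene had several probe sets, the one of highest mean over all arrays was used. This gave 49 members among 22180 genes: 22 MMPs, 18 ADAMTS proteases, 5 ADAMTS-like proteins and 4 TIMPs. In at least 1 group of arrays, 37 of the 49 reached the floor for testing, a group mean of 4.94 on the log2 scale. The other 12, Mmp1a, Mmp1b, Mmp3, Mmp12, Mmp13, Mmp20, Mmp21, Mmp25, Mmp27, Adamts18, Adamts19 and Adamts20, were not tested. Adamts2 and Mmp15 were not analysed here.

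MMPs and ADAMTS proteases are zinc enzymes that cut proteins of the extracellular matrix. They are made as inactive precursors and are switched on by removal of a propeptide, often by furin-type convertases or by other metalloproteases. Among the MMPs, collagenases open the triple helix of fibrillar collagen, gelatinases cut denatured collagen and also elastin, stromelysins have a broad range of substrates, and membrane-type MMPs act at the cell surface. ADAMTS proteases include enzymes that cut the proteoglycans aggrecan and versican, and enzymes that remove the N-terminal propeptide of fibrillar procollagens. ADAMTS-like proteins resemble the ancillary part of ADAMTS proteases but have no protease domain, and several of them bind fibrillin microfibrils. TIMPs bind the active site of MMPs and, in the case of TIMP3, also that of several ADAMTS proteases. In the vessel wall these genes are known from smooth muscle cells, fibroblasts and infiltrating leukocytes, and a shift in their balance is a known feature of aneurysm.

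The arrays compared knockout (KO) with wild-type (WT) aorta in 3 mouse models, each with its own WT mice: Eln, coding for elastin, Efemp2, coding for fibulin-4, and Lox, coding for lysyl oxidase. Eln and Efemp2 mice were on a C57BL/6 background and Lox mice on a B6 albino background, and the labels say no more about the KO alleles. Ascending aorta (AA) and descending aorta (DA) came from embryos (day 17.5, E17.5) and newborns (day 1, P1), which gave 24 groups of 2 arrays and 12 KO and WT pairs. Each array carried RNA from 8 pooled aortas, amplified from 5 ng. The labels do not say whether the pools of a group came from separate litters, so the p-values measure only the spread between these samples, which may be technical. All values are deposited log2 expression values, on which a difference of 1 is a 2-fold change. Embryonic and postnatal arrays seem not always to have been normalized together, so levels are compared only within a model and stage. All 6 smooth muscle markers fixed for the check of the tissue lay above background on all 48 arrays.

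The deleted gene fell in 2 of the models. Eln was lower by a log2 difference of -6.12 ± 0.22 (SE) in the Eln KO, and Lox by -2.66 ± 0.16 in the Lox KO (limma, adjusted p = 2.5e-19 and 1.5e-12). No probe set carries the symbol Efemp2, so the Efemp2 labels were not checked in this way. At E17.5, replicate 1 of the Lox KO kept more Lox signal (7.99 in AA and 7.93 in DA) than replicate 2 (6.56 and 6.26). In 4 WT arrays at P1 the dim end of the signal was raised: both arrays of Eln WT DA, replicate 2 of Efemp2 WT AA and replicate 2 of Efemp2 WT DA. In them the 95th percentile of 1390 olfactory and vomeronasal receptor genes, which the aorta is not expected to use, lay between 5.70 and 5.91, against at most 5.21 on the other Eln and Efemp2 arrays at P1. For many members, results that rest on these 4 arrays are given with and without them. Results for gene and marker lists and counts of non-overlapping arrays are given with them only. Without them the Eln means run over the other 3 pairs and the WT comparisons leave out the Eln P1 pair. The Eln effect is then compared between locations at E17.5 alone and between stages in AA alone.

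A member was called above background in a group when both of its arrays lay above that receptor percentile. By this rule 14 members were above background in all 24 groups. They were Adamts1, Adamts5, Adamts9, Adamts10 and Adamts12, the MMPs Mmp2, Mmp11, Mmp14, Mmp16 and Mmp23, and all 4 TIMPs. A further 21 were above background in some groups and 14 in none. Among 20790 other genes the share above background in all groups was 19.4% and the share above it in none was 29.8%. With the 99th percentile in its place, the 3 counts became 7, 20 and 22, and with only 1 of the 2 arrays required they became 19, 23 and 7. The collagenases Mmp1a, Mmp1b and Mmp13, the stromelysin Mmp3 and the macrophage elastase Mmp12 were above background in no group. The neutrophil collagenase Mmp8 reached it in 7 groups, the gelatinase Mmp9 in 9 and the stromelysin Mmp10 in 5. All 5 ADAMTS-like genes were above background in most groups, from 20 for Adamtsl2 and Adamtsl3 to 23 for Adamtsl4 and Adamtsl5.

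**Figure D1:**
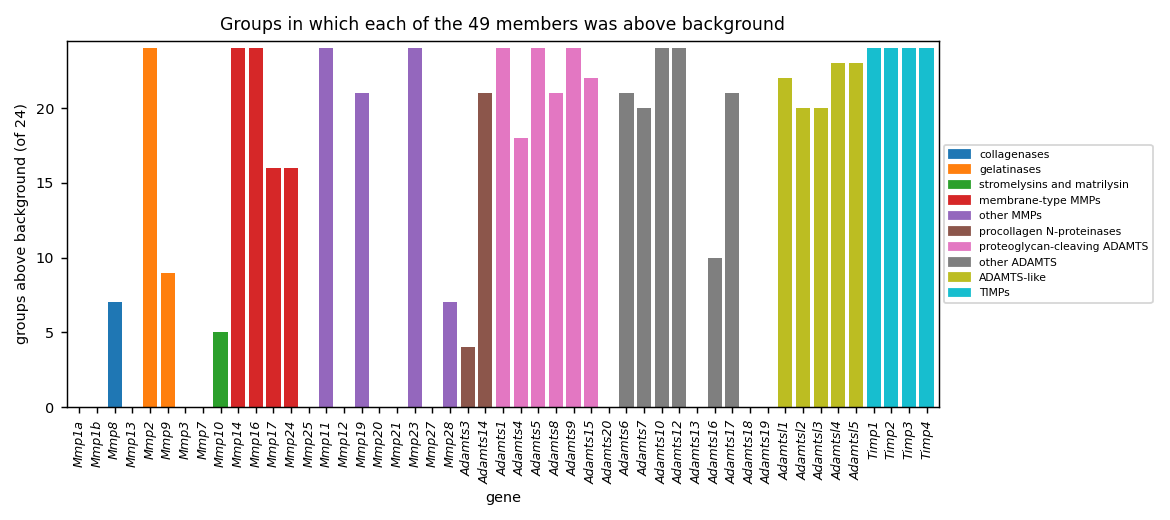
Number of the 24 groups in which each of the 49 members lay above background on both arrays, one bar per member, coloured by subfamily. The 14 members with full bars include all 4 TIMPs, and 14 members have a count of 0.

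Many of the members that did not reach background lie together in the genome. In the RefSeq gene order of mouse assembly GRCm38.p6, 10 MMP genes stand side by side on chromosome 9 with 0 other genes between neighbours: Mmp13, Mmp12, Mmp1b, Mmp3, Mmp1a, Mmp10, Mmp8, Mmp27, Mmp20 and Mmp7. Of these 10, 8 were above background in no group, and only Mmp8 and Mmp10 reached it in any. Adamts15 and Adamts8 are direct neighbours on chromosome 9 as well, and Adamts1 and Adamts5 are neighbours on chromosome 16. The bases upstream of the transcription start were available from RefSeq for 34 of the 49 members. In the 250 bases before the start, both strands were searched for an AP-1 site (TGANTCA), a cyclic AMP response element (TGACGTCA), a TATA box (TATAAA), a GC box (GGGCGG), the CArG box, an E box (CANNTG) and a TEAD site (GGAATG). The letters of a CArG box can contain those of a TATA box, and an E box can overlap any of the others.

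The AP-1 letters were found before 7 members (20.6% of the 34, against 6.87% of 27025 promoters), and all 7 belong to the chromosome 9 group: Mmp1a, Mmp1b, Mmp3, Mmp7, Mmp10, Mmp13 and Mmp20. The same 7 hold TATA box letters, as do 3 of the other 24 members (29.4% of the members, 13.0% of all promoters). GC box letters were before 18 members (52.9%, against 32.9% of all promoters). They were before 7 of the 10 members above background in all groups, 8 of the 11 in some and 3 of the 13 in none. The median GC content of these upstream stretches was 63.2% for members above background in all groups, 64.4% for those in some and 42% for those in none. For all promoters it was 52%. E box letters stood before 23 members (67.6%, against 66.0%) and TEAD letters before 2 (5.88%, against 12.6%). The CArG box and the cyclic AMP response element had 0 matches among the members (1.40% and 1.62% of all promoters). These are matches of letters and show no binding. The 150 bases before the start are shown for 3 neighbours on chromosome 9, of which Mmp3 was above background in no group and Mmp8 and Mmp10 in some, and for 4 members that changed in a KO or along the aorta. Capitals mark AP-1, TATA box and GC box letters.
Mmp3: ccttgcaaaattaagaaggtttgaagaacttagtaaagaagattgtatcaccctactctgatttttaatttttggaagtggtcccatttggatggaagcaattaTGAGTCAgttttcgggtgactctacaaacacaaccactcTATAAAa
Mmp10: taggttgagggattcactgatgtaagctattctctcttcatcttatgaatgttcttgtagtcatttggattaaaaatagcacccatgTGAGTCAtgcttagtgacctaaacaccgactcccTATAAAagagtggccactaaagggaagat
Mmp8: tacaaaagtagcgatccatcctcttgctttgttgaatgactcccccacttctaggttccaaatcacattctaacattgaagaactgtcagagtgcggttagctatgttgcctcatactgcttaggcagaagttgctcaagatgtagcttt
Timp1: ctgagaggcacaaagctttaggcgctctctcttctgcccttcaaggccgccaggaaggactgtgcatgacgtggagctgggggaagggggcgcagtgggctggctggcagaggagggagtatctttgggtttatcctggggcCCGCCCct
Timp4: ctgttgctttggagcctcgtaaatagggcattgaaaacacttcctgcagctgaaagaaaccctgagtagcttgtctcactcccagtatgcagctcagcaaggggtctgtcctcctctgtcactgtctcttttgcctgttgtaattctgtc
Adamts14: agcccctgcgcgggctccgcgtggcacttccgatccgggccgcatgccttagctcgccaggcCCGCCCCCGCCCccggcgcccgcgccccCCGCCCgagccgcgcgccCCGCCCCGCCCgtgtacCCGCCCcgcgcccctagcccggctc
Adamts12: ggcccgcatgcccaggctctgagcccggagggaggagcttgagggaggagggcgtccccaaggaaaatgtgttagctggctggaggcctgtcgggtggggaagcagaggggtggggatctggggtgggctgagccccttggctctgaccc

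On GRCm38.p6 these stretches lie at chr9:7445672-7445821 (plus strand) for Mmp3, chr9:7502192-7502341 (plus strand) for Mmp10 and chr9:7558279-7558428 (plus strand) for Mmp8. Those of the inhibitors lie at chrX:20870016-20870165 (plus strand) for Timp1 and chr6:115252206-115252355 (minus strand) for Timp4. Those of the ADAMTS genes lie at chr10:61273420-61273569 (minus strand) for Adamts14 and chr15:11064623-11064772 (plus strand) for Adamts12. All are 5' flanking sequence, outside the annotated transcript. Mmp3 and Mmp10 carry the AP-1 letters and TATA box letters within these bases, and Mmp8, their neighbour, carries neither. Timp1 and Adamts14 carry GC box letters. The stretch of Adamts14 is the most GC-rich of the 7, at 84.7%, and that of Mmp3 the least, at 35.3%.

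The main question was whether loss of each elastic fibre gene altered these proteases and inhibitors. Averaged over the 4 pairs of each model, Adamts8 rose in all 3 KOs. ADAMTS proteases were 4 of the 6 members that rose in Eln, 3 of 6 in Efemp2 and 1 of 2 in Lox. The 37 tested members held 6 proteoglycan-cleaving ADAMTS proteases, 2 procollagen N-proteinases and 7 other ADAMTS proteases. Whether ADAMTS proteases rose more often than other members was not tested. In the Eln KO, 6 of the 37 tested members rose and 0 fell (16.2%), against 3.29% of the 15337 tested genes, of which 2.74% rose and 0.541% fell. In the Efemp2 KO 6 rose and 2 fell (21.6%), against 3.81% of genes, of which 3.14% rose and 0.665% fell. In the Lox KO 2 rose and 1 fell (8.11%), against 1.56% of genes, of which 0.561% rose and 1.00% fell. Calls are adjusted p-values under 0.05 from limma with Benjamini-Hochberg adjustment over all tested genes. The median difference of the tested members was 0.17 in Eln, 0.10 in Efemp2 and -0.01 in Lox, beside 0.06, 0.04 and -0.09 for all tested genes. Of all tested genes 421 rose and 83 fell in Eln, 482 and 102 in Efemp2, and 86 and 154 in Lox. The split depends on the scaling: after cyclic loess over all arrays it was 243 and 140, 341 and 208, and 137 and 72, and after centring each array on its median 288 and 124 in Eln and 157 and 73 in Lox. Every member call of these means kept its direction under both. Since the samples are pieces of vessel, more RNA per cell and more cells of a type cannot be told apart.

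**Figure D2:**
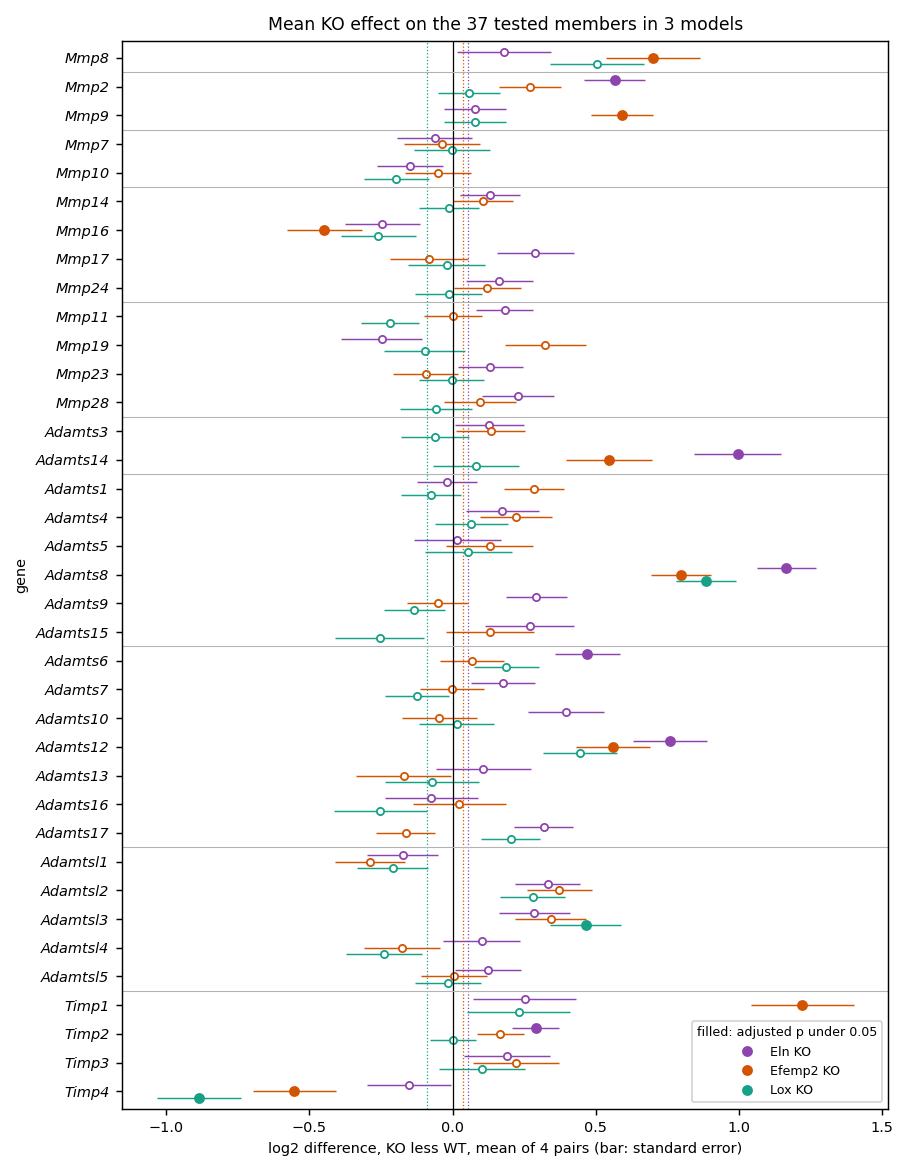
Mean KO less WT difference (log2) over the 4 pairs of each model for the 37 tested members, with its standard error and one colour per model. Filled points are called at an adjusted p under 0.05, and dotted lines mark the median of all tested genes. Adamts8 is filled in all 3 colours, and Timp4 is filled and below 0 in Efemp2 and Lox.

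By subfamily, 1 of the 6 tested proteoglycan-cleaving ADAMTS proteases rose in each model, Adamts8 in every case. Of the 2 procollagen N-proteinases Adamts14 rose in Eln and Efemp2. Of the other 7 ADAMTS proteases 2 rose in Eln (Adamts12 and Adamts6), 1 in Efemp2 (Adamts12) and 0 in Lox. Of the 5 ADAMTS-like genes 1 rose, Adamtsl3 in Lox. Among the MMPs, Mmp2 rose in Eln, Mmp8 and Mmp9 rose in Efemp2, and the membrane-type Mmp16 fell in Efemp2. The 4 tested MMPs of other kinds and the 2 stromelysin-type genes were called in none of the 3 models. Among the TIMPs, Timp2 rose in Eln, Timp1 rose in Efemp2, and Timp4 fell in Efemp2 and Lox. The other 25 tested members were called in none of the 3 means, with differences from -0.29 for Adamtsl1 in Efemp2 to 0.40 for Adamts10 in Eln (0.15 without the 4 raised-background arrays). They include Mmp7, Mmp10, Mmp11, Mmp17, Mmp19, Mmp23, Mmp24, Mmp28, Adamts7, Adamts13, Adamts16, Adamts17, Adamtsl4 and Adamtsl5.

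Adamts8 codes for a protease that cuts aggrecan. In the Eln model its WT arrays read 6.05 and 6.10 in AA at E17.5, 5.85 and 5.99 in DA at E17.5, 5.12 and 5.42 in AA at P1, and 4.70 and 4.83 in DA at P1. The matching Eln KO arrays read 6.55 and 6.72, 7.37 and 7.0, 5.81 and 6.31, and 7.12 and 6.50. In each of the 4 pairs both KO arrays were above both WT arrays. Its mean difference was 1.16 ± 0.10 (SE, 4 pairs of 2 against 2 arrays, adjusted p = 7.1e-09).

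In the Efemp2 model Adamts8 read 5.86 and 6.13 in WT AA at E17.5 against 6.25 and 6.64 in KO, and 6.10 and 6.32 in WT DA at E17.5 against 6.76 and 6.62. At P1 it read 5.03 and 4.60 in WT AA against 6.06 and 5.96 in KO, and 4.89 and 4.81 in WT DA against 6.08 and 5.74. The mean difference was 0.80 ± 0.10 (adjusted p = 7.8e-06). In the Lox model the WT arrays read 4.79 and 5.00 in AA and 4.74 and 4.92 in DA at E17.5, and the KO arrays 5.13 and 5.21 in AA and 5.57 and 5.91 in DA. At P1 the Lox WT arrays read 6.02 and 6.08 in AA and 6.08 and 5.97 in DA, and the KO arrays 7.08 and 7.02 in AA and 7.46 and 7.29 in DA. The mean difference was 0.88 ± 0.10 (adjusted p = 4.3e-06). KO and WT arrays of Adamts8 did not overlap in any of the 12 pairs, a record shared by 12 of the 15337 tested genes (0.0782%). A second, dimmer probe set of Adamts8 rose by 0.58 ± 0.12 in Eln (adjusted p = 0.0047) and differed by 0.10 in Efemp2 and 0.23 in Lox, where it was not called (adjusted p = 0.74 and 0.39). The rise of the main probe set without the 4 raised-background arrays was 0.87 in Eln, 0.73 in Efemp2 and 0.88 in Lox, called in each.

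**Figure D3:**
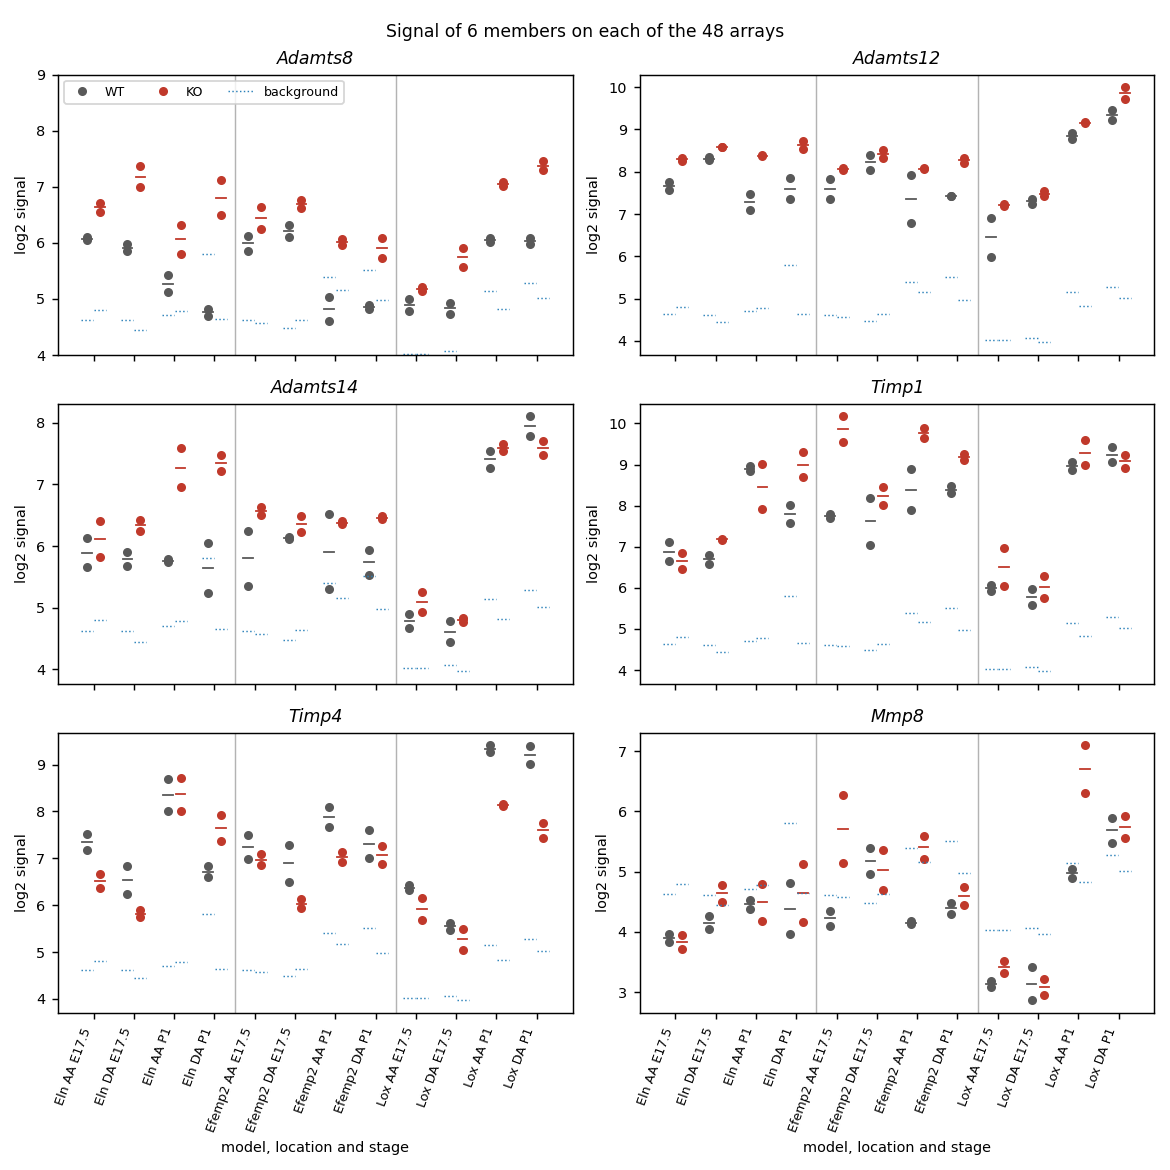
Deposited log2 value of Adamts8, Adamts12, Adamts14, Timp1, Timp4 and Mmp8 on every one of the 48 arrays, one panel per gene, WT in grey and KO in red, with the groups in order of model, stage and location. Solid marks are group means and dotted marks the group mean of the receptor 95th percentile. KO points of Adamts8 lie above the WT points in every pair, and those of Timp4 lie below them in 7 pairs and above them in 1.

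The other 5 proteoglycan-cleaving proteases were called in none of the 3 means, while single pairs at P1, given further on, called Adamts9 and Adamts15 in Eln and Adamts1 in Efemp2. Adamts1, which cuts versican, differed by -0.02 in Eln, 0.28 in Efemp2 and -0.08 in Lox (adjusted p = 0.96, 0.14 and 0.78). The aggrecanases Adamts4 and Adamts5 differed by between 0.02 and 0.22 in the 3 models, with no call. Adamts15, next to Adamts8 on chromosome 9, differed by 0.27, 0.13 and -0.26 (adjusted p = 0.42, 0.74 and 0.46), with -0.05 in Eln once the 4 raised-background arrays were left out. Adamts9, another versican-cleaving protease, differed by 0.29, -0.05 and -0.13. KO and WT arrays of Adamts15 overlapped in 7 of the 12 pairs.

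Adamts14 removes the propeptide of fibrillar procollagens. In the Eln model its WT arrays read 5.67 and 6.12 in AA and 5.68 and 5.91 in DA at E17.5, then 5.74 and 5.78 in AA and 5.25 and 6.04 in DA at P1. The Eln KO arrays read 5.83 and 6.41 in AA and 6.24 and 6.43 in DA at E17.5, then 6.96 and 7.58 in AA and 7.47 and 7.22 in DA at P1. The arrays overlapped in AA at E17.5 and were apart in the other 3 Eln pairs, most widely at P1. The mean rise in Eln was 0.995 ± 0.15 (adjusted p = 6.9e-05), and its second probe set rose by 0.51 ± 0.12 (adjusted p = 0.0077). In Efemp2 the rise was 0.55 ± 0.15 (adjusted p = 0.035). Without the 4 raised-background arrays it was 0.34 (adjusted p = 0.16), and leaving out any of 12 of the 16 Efemp2 arrays also ended the call, with differences from 0.39 to 0.70. In Lox Adamts14 differed by 0.08 (adjusted p = 0.84), which is 0.91 below the Eln effect (adjusted p of that difference = 0.040, 0.509% of genes called). The other N-proteinase on the array, Adamts3, was above background in 4 groups, all Lox at P1, and was called in no mean.

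Adamts12, a protease known to cut cartilage oligomeric matrix protein, was above background in every group. Its Eln WT arrays read 7.56 and 7.76 in AA and 8.27 and 8.36 in DA at E17.5, then 7.47 and 7.09 in AA and 7.86 and 7.35 in DA at P1. The Eln KO arrays read 8.34 and 8.25, 8.58 and 8.58, 8.40 and 8.36, and 8.72 and 8.54 in the same order. All Eln KO arrays were above the WT arrays of their pair. Over the 12 pairs this held in 11 (0.156% of genes in 11 or 12), the exception being Efemp2 DA at E17.5, with WT arrays at 8.39 and 8.05 and KO arrays at 8.32 and 8.50. Adamts12 rose by 0.76 ± 0.13 in Eln and 0.56 ± 0.13 in Efemp2 (adjusted p = 3.5e-04 and 0.0081). The Efemp2 call was lost when the model was fitted on the Efemp2 arrays alone (0.56, adjusted p = 0.12). In Lox it differed by 0.44 ± 0.13 (adjusted p = 0.074), and was called there without the 4 arrays of raised background, none of which is a Lox array (0.44, adjusted p = 0.016). Its difference was above 0 in 12 of 12 pairs, as were those of Adamts8 and Adamtsl2 (0.711% of genes).

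Adamts6 rose by 0.47 ± 0.11 in Eln (adjusted p = 0.013) and differed by 0.07 and 0.19 in Efemp2 and Lox. Its Eln arrays in AA read 6.14 and 6.01 in WT and 6.40 and 6.78 in KO at E17.5, and 5.69 and 5.47 against 6.60 and 5.94 at P1. In DA they read 5.98 and 6.02 against 6.11 and 6.14 at E17.5, and 5.16 and 5.20 against 5.69 and 5.76 at P1. KO arrays were above WT arrays in all 4 Eln pairs, by little in DA at E17.5. The call was lost without Eln KO AA E17.5 replicate 2 (0.42, adjusted p = 0.057), without Eln KO AA P1 replicate 1 (0.39, adjusted p = 0.052) and without the 4 raised-background arrays (0.44, adjusted p = 0.080). Its close relative Adamts10, which binds fibrillin, differed by 0.40, -0.05 and 0.01, with no call (adjusted p = 0.10, 0.91 and 0.97), and by 0.15 in Eln once those 4 arrays were left out (adjusted p = 0.84).

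Among the ADAMTS-like genes, Adamtsl2, whose product binds fibrillin microfibrils, was higher in the KO in 12 of 12 pairs, with both KO arrays above both WT arrays in 9. Its mean differences were 0.33, 0.37 and 0.28 and passed the threshold in none of the 3 models (adjusted p = 0.11, 0.060 and 0.23). The Efemp2 difference was 0.45 and called once the 4 raised-background arrays were left out. Adamtsl3 rose by 0.46 ± 0.12 in Lox (adjusted p = 0.047), with WT arrays at 4.0 and 4.20 and KO arrays at 5.13 and 4.89 in AA at E17.5, and 5.22 and 5.26 against 5.73 and 5.72 in DA at E17.5. At P1 its Lox arrays overlapped in AA, at 6.61 and 6.55 in WT and 6.43 and 6.85 in KO, and were apart in DA, at 7.36 and 7.39 against 8.00 and 7.57. That call was lost in 13 of the 16 fits that left out 1 Lox array, with differences from 0.41 to 0.52. Adamtsl1 was lower in the KO in 11 of 12 pairs and not called in any model (-0.17, -0.29 and -0.21).

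Of the MMPs with high signal, Mmp2 (gelatinase A) rose in Eln by 0.57 ± 0.11 (adjusted p = 0.0012). The Eln arrays read 9.26 and 9.53 in WT against 9.20 and 9.29 in KO in AA at E17.5, 9.16 and 9.24 against 9.58 and 9.51 in DA at E17.5, then 9.44 and 9.30 against 9.62 and 9.95 in AA at P1. In DA at P1, where both WT arrays have the raised background, they read 7.85 and 8.41 in WT and 9.45 and 10.10 in KO. The KO arrays overlapped the WT arrays in AA at E17.5 and lay above them in the other 3 pairs, most widely in this last one. Without the 4 arrays the mean difference was 0.20 and the call was lost. In Efemp2 and Lox Mmp2 differed by 0.27 and 0.06 (adjusted p = 0.18 and 0.84). Mmp14, the membrane-type MMP that activates pro-MMP2 together with TIMP2, differed by 0.13, 0.10 and -0.01 and was called in none of the 3 means (adjusted p = 0.60, 0.68 and 0.97).

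The leukocyte-type MMPs, Mmp8 and Mmp9, rose in Efemp2. Mmp8, the collagenase stored in neutrophils, read 4.35 and 4.10 in Efemp2 WT AA at E17.5 and 6.27 and 5.14 in KO, and 4.13 and 4.18 against 5.59 and 5.22 in AA at P1. In DA it read 4.97 and 5.39 against 4.69 and 5.36 at E17.5, and 4.30 and 4.48 against 4.45 and 4.74 at P1. The KO arrays stood clear of the WT arrays in AA at both stages and overlapped them in DA. The mean rise was 0.70 ± 0.16 (adjusted p = 0.010), and 0.56 (adjusted p = 0.058) without Efemp2 KO AA E17.5 replicate 1. In Lox AA at P1 Mmp8 read 5.05 and 4.90 in WT and 6.31 and 7.10 in KO, while its Lox mean of 0.50 was not called (adjusted p = 0.13). Since the WT arrays of these 3 ascending pairs were not above background, the differences are lower bounds: at least 2.13-fold and 1.00-fold higher in Efemp2 AA at E17.5 and P1, and at least 2.94-fold higher in Lox AA at P1. Bounds set the mean of the bright group against the dim arrays raised to their receptor percentile.

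Mmp9 (gelatinase B) rose in Efemp2 by 0.59 ± 0.11 (adjusted p = 7.6e-04). It read 4.60 and 4.91 in WT AA at E17.5 against 6.07 and 5.49 in KO, and 5.21 and 5.41 in WT DA against 5.81 and 5.12. At P1 it read 4.61 and 4.72 against 5.25 and 5.25 in AA and 4.47 and 4.50 against 5.04 and 5.13 in DA. The arrays overlapped in DA at E17.5 alone. In the other 3 pairs the WT arrays were not both above background, so these differences are against a signal near background and no fold is given. In Eln and Lox Mmp9 differed by 0.08 in both (adjusted p = 0.81 and 0.78).

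Leukocyte markers moved in the same samples. Of 8 neutrophil markers 4 rose in the Efemp2 mean (S100a8 by 1.85, S100a9 by 1.45, Retnlg by 0.98 and Ngp by 0.80) and 0 in Eln and Lox. Of 7 macrophage markers 5 rose in Efemp2, 1 in Lox and 0 in Eln. The list medians were 0.69 and 0.67 in Efemp2, 0.43 and 0.49 in Lox, and 0.12 and 0.003 in Eln. The mean level of the neutrophil list ran from 6.10 to 6.50 in Efemp2 KO AA at E17.5 against 5.19 to 5.20 in WT, and from 6.46 to 6.64 in Lox KO AA at P1 against 5.23 to 5.74 in WT. The list was also higher without overlap where the Mmp8 arrays overlapped: from 6.19 to 6.34 against 5.61 to 5.97 in Efemp2 DA at E17.5. In Lox DA at P1 it ran from 6.34 to 6.82 against 5.85 to 6.01, and in Eln AA at E17.5 from 5.14 to 5.46 against 4.59 to 4.69. In Efemp2 AA at E17.5 and Lox AA at P1 7 of the 8 markers were above background on each KO array, and between 3 and 6 on the WT arrays. The part of leukocyte RNA in the Mmp8, Mmp9 and Timp1 differences was not tested.

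Mmp16, the third membrane-type MMP, had Efemp2 arrays at 7.22 and 7.50 in WT and 6.62 and 6.72 in KO in AA at E17.5, and at 7.24 and 7.10 against 6.53 and 6.81 in DA. At P1 they overlapped, at 6.26 and 6.19 against 5.85 and 6.35 in AA and 7.02 and 5.98 against 6.07 and 5.97 in DA. Mmp16 fell by -0.45 ± 0.13 in Efemp2 (adjusted p = 0.047), a call lost in 14 of the 16 fits without 1 Efemp2 array, with differences from -0.58 to -0.32, and -0.59 without the 4 raised-background arrays (adjusted p = 0.0063). It was lower in the KO in 11 of 12 pairs, with no overlap in 7, and differed by -0.25 in Eln and -0.26 in Lox, where it was not called (adjusted p = 0.37 and 0.36). In Eln it was called after cyclic loess (-0.36, adjusted p = 0.036) and with the median of the receptor genes as a covariate (-0.50, adjusted p = 0.046). It was not called there without the 4 raised-background arrays (-0.34, adjusted p = 0.28).

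Among the inhibitors, Timp1, a secreted inhibitor of most MMPs, had the largest rise of any member in Efemp2. It read 7.70 and 7.81 in WT AA at E17.5 and 10.17 and 9.55 in KO, and 8.88 and 7.89 against 9.65 and 9.88 in AA at P1. In DA it read 7.05 and 8.20 against 8.44 and 8.00 at E17.5, and 8.48 and 8.30 against 9.26 and 9.10 at P1. The KO arrays were above the WT arrays in 3 of the 4 pairs and overlapped them in DA at E17.5. The mean rise was 1.22 ± 0.18 (adjusted p = 4.8e-05), and 1.07 without the 4 raised-background arrays. In Eln and Lox Timp1 differed by 0.25 and 0.23 (adjusted p = 0.55 and 0.58), and the Efemp2 effect was not shown to differ from that of either.

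Timp2, which inhibits MMPs and helps to activate pro-MMP2, rose by 0.29 ± 0.08 in Eln (adjusted p = 0.040). Its Eln arrays overlapped in no pair: they were lower in the KO in AA at E17.5, at 8.85 and 8.81 against 8.94 and 8.96, and higher in the other 3 pairs. In DA at P1 they read 7.98 and 8.33 in WT and 8.93 and 9.07 in KO. Timp2 without the 4 raised-background arrays differed by 0.10 (adjusted p = 0.80), and leaving out any of 12 of the 16 Eln arrays ended the call, with differences from 0.25 to 0.33. Timp3, the matrix-bound inhibitor, differed by 0.19, 0.22 and 0.10 and was not called (adjusted p = 0.60, 0.50 and 0.79).

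Timp4, an inhibitor known from heart, muscle and fat, fell in Lox and Efemp2. Its Lox WT arrays read 6.43 and 6.32 in AA and 5.63 and 5.47 in DA at E17.5, then 9.26 and 9.41 in AA and 9.40 and 9.01 in DA at P1. The Lox KO arrays read 6.15 and 5.69 in AA and 5.50 and 5.05 in DA at E17.5, then 8.15 and 8.11 in AA and 7.76 and 7.43 in DA at P1. The KO arrays were below the WT arrays in AA at both stages and in DA at P1, and overlapped them slightly in DA at E17.5. In the Efemp2 model Timp4 read 6.98 and 7.50 in WT AA at E17.5 against 6.85 and 7.10 in KO, 6.50 and 7.29 in WT DA at E17.5 against 6.12 and 5.93, and 8.10 and 7.67 in WT AA at P1 against 6.93 and 7.14. In Efemp2 DA at P1 it read 7.61 and 7.0 against 7.27 and 6.88. The Efemp2 KO arrays were below the WT arrays in DA at E17.5 and AA at P1 and overlapped them in the other pairs. The mean difference was -0.89 ± 0.15 in Lox (adjusted p = 5.4e-04) and -0.55 ± 0.15 in Efemp2 (adjusted p = 0.026). The Efemp2 call was lost in 8 of the 16 fits without 1 Efemp2 array, with differences from -0.65 to -0.46, and was kept without the 4 raised-background arrays (-0.68). In Eln Timp4 differed by -0.15 (adjusted p = 0.68), and by -0.51 (adjusted p = 0.14) once those 4 arrays were left out. Its Eln arrays read 7.53 and 7.17 in WT AA at E17.5 against 6.67 and 6.37 in KO, and 6.23 and 6.84 in WT DA at E17.5 against 5.89 and 5.75. At P1 they read 8.69 and 8.02 against 8.01 and 8.71 in AA, and 6.60 and 6.84 against 7.92 and 7.36 in DA. The Eln KO arrays were thus below the WT arrays in both embryonic pairs, overlapped them in AA at P1 and were above them in DA at P1.

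Brown fat, which lies around the vessel in newborn mice, was followed by 6 markers. Their mean level ran from 6.35 to 6.40 in Lox KO AA at P1 against 7.17 to 7.88 in WT, and from 7.48 to 7.79 in Lox KO DA at P1 against 8.47 to 8.95. In Efemp2 AA at P1 it ran from 5.77 to 5.78 against 6.17 to 6.65. The list and Timp4 were also both lower without overlap in some embryonic pairs. There the list ran from 5.27 to 5.31 against 5.39 to 5.45 in Eln AA and from 5.26 to 5.48 against 5.69 to 5.71 in Eln DA. In Lox AA at E17.5 it ran from 4.82 to 4.93 against 5.06 to 5.12. On the arrays of these embryonic pairs 2 to 4 of the 6 markers were above background. The list was also lower without overlap where the Timp4 arrays overlapped, from 6.39 to 6.48 against 7.24 to 8.29 in Efemp2 DA at P1 and from 6.36 to 6.63 against 6.92 to 9.21 in Eln AA at P1. The same held at E17.5 in Lox DA, at 5.01 on both KO arrays against 5.10 to 5.28, and in Efemp2 AA, from 5.44 to 5.55 against 5.65 to 5.68. In Efemp2 DA at E17.5, where Timp4 was lower in the KO, the list stood at 5.73 on both KO arrays against 5.55 to 5.75 in WT. In Eln DA at P1, where Timp4 was higher in the KO, the list overlapped, from 7.28 to 7.67 against 7.07 to 8.03. The median difference of the list was -0.65 in Lox, -0.48 in Efemp2 and -0.49 in Eln, with 1, 0 and 2 of 6 called lower. On the Lox KO arrays at P1 5 or 6 of the 6 markers were above background. The part of surrounding fat in the Timp4 difference was not tested.

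In the 12 single pairs, each a comparison of 2 with 2 arrays, 36 member calls were made, 33 higher and 3 lower in the KO. At E17.5 they were few. In Eln AA (0.124% of genes called), Efemp2 DA (0.0391%), Lox AA (0.0261%) and Lox DA (0.0130%) 0 members were called by limma. At an unadjusted limma p under 0.05 stood 8, 3, 5 and 4 members (21.6%, 8.11%, 13.5% and 10.8%). The shares of all genes at that threshold were 3.6%, 6.16%, 5.67% and 3.94%. In Eln DA 1 was called (0.0456%), Adamts8, by 1.27 ± 0.21 (adjusted p = 0.0048). In Efemp2 AA 3 were called (0.613%): Timp1 by 2.11 (adjusted p = 0.0016), Mmp8 by 1.48 (0.021) and Mmp9 by 1.03 (0.014).

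At P1 the ascending pairs gave 4 calls in Eln (1.81%), all ADAMTS proteases: Adamts14 by 1.51 (adjusted p = 0.0069), Adamts12 by 1.10 (0.022), Adamts9 by 0.85 (0.032) and Adamts8 by 0.79 (0.041). They gave 4 in Efemp2 (3.70%): Timp1 by 1.38 (0.028), Mmp8 by 1.25 (0.030), Adamts8 by 1.20 (0.0010) and Mmp2 by 0.80 (0.033). Without replicate 2 of Efemp2 WT AA, a raised-background array, the Timp1 difference was 0.88 and not called. In Lox AA at P1 all genes together shifted by a median of -0.20, and 3 members were called (0.606%). Less that median, Mmp8 was higher by 1.93, Adamts8 higher by 1.20 and Timp4 lower, at -1.01. The calls rest on the differences before the median was taken off (limma, adjusted p = 0.0086, 0.017 and 0.046). The values less the median were not tested.

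In the descending aorta at P1, Lox gave 2 calls (0.261%): less the median of -0.17, Adamts8 was higher by 1.53 and Timp4 lower, at -1.44. Their limma adjusted p-values, 0.0011 and 0.0070, again belong to the differences before the median was taken off. Efemp2 gave 3 (1.55%): Adamts8 by 1.06 (0.0054), Adamts3 by 0.90 (0.048) and Adamts1 by 0.85 (0.031). Adamts8 was not above background in the 2 WT arrays, which makes it at least 1.32-fold higher, and Adamts3 was above background on 1 of the 4 arrays. Without the raised-background array of that pair 0 members were called. In Eln, where both WT arrays have the raised background, 16 members were called, 15 higher and 1 lower, beside 25.5% of all genes, 19.8% higher and 5.74% lower. Less the median of 0.27 for all genes, the largest of them were Adamts8 (1.77), Adamts14 (1.43), Mmp2 (1.38), Adamts15 (0.95) and Timp1 (0.93), and Mmp7 was at -1.34. With the median not taken off, Adamts8 was at least 2.01-fold and Adamts15 at least 1.56-fold higher. Less the median these bounds would be lower. Mmp7 was not above background on both arrays of any group, and no fold is given for it. Mmp28 (0.96) was not above background on either WT array of this pair and gave no bound above 1, so no fold is given for it either. This pair cannot be estimated without its WT arrays. Of the 36 calls in single pairs, 30 were lost when 1 of the 4 arrays was left out. The 6 that stayed were Adamts8 in Efemp2 AA at P1 and, in Eln DA at P1, Adamts8, Adamts14, Mmp2, Mmp28 and Timp2.

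**Figure D4:**
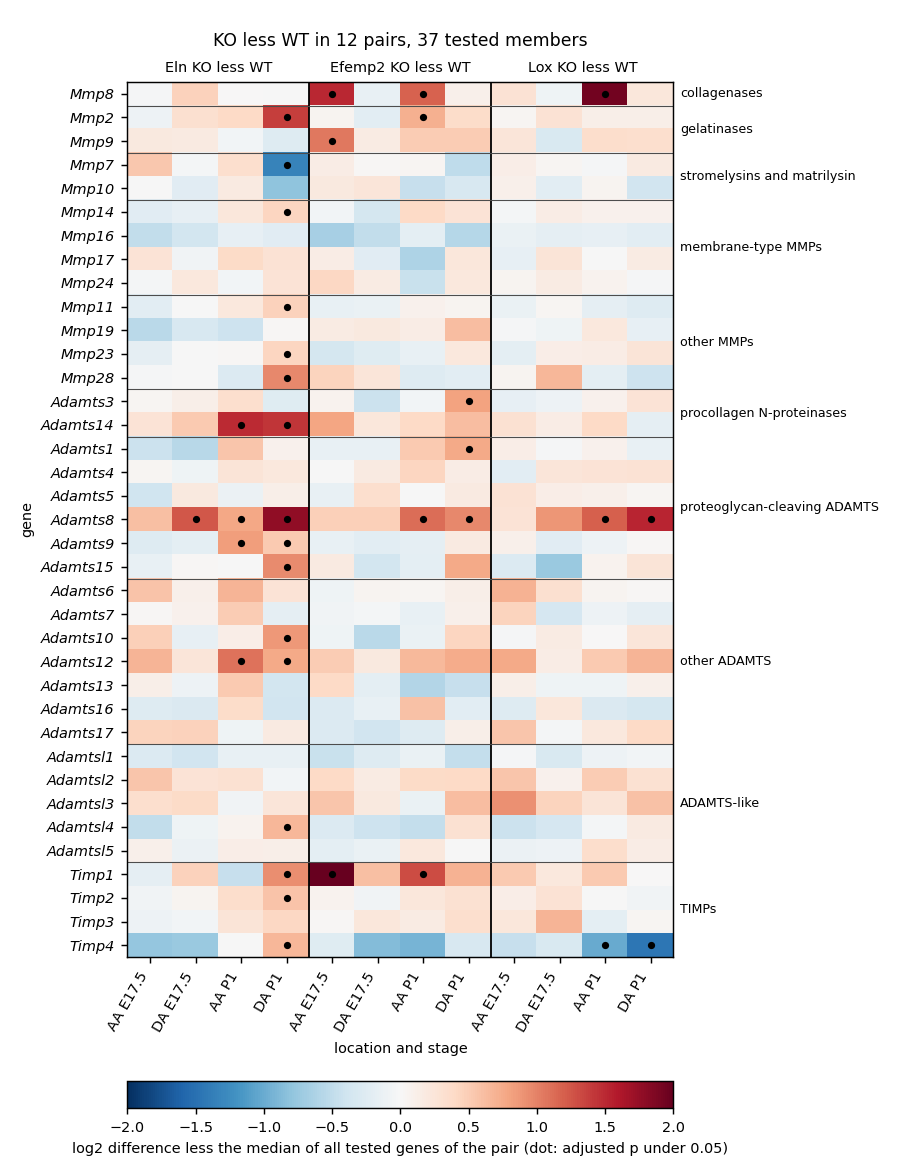
Heat map of the KO less WT difference (log2), less the median of all tested genes of the pair, for the 37 tested members in each of the 12 pairs, with colours held at 2 and -2. Dots mark adjusted p-values under 0.05, which test the difference before the median is taken off. The row of Adamts8 is above 0 in every pair, and the column of Eln DA at P1 holds 16 of the 36 dots.

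Counts of members whose arrays did not overlap can be read against the same count over all genes. In Efemp2 DA at P1, 23 of the 37 members had both KO arrays above both WT arrays, beside 26.4% of all genes, and in Eln AA at P1 15 did, beside 21.4%. In Lox AA at P1 17 members had both KO arrays below both WT arrays and 6 above, beside 54.6% and 8.33% of all genes, and there the arrays as a whole were shifted. In Eln AA at E17.5 14 were below and 6 above, beside 26.8% and 15.2%. In Eln DA at E17.5 13 were above and 6 below, beside 25.8% and 17.6%.

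Whether the KO effect itself depends on location, age or model was tested within each model and between models. The KO less WT difference in Eln was higher in the descending than in the ascending aorta for Adamts8 (by 0.98, adjusted p = 0.012) and Mmp2 (by 0.86, 0.025), and lower by -0.97 for Mmp7 (0.031), beside 5.24% of all genes. Mmp7 was above background in no group. Of its Eln groups only WT DA at P1, which has the raised background, reached the floor for testing (5.63). Less the median of 0.18 for all genes, the differences for Adamts8 and Mmp2 were 0.80 and 0.69. Without the 4 raised-background arrays, locations in Eln can be compared at E17.5 alone. There the differences for Adamts8, Mmp2 and Mmp7 were 0.71, 0.50 and -0.52, and 0 members were called. In Efemp2 and in Lox 0 members and 0 genes were called by limma for this contrast. In each, 2 members (5.41%) had an unadjusted p under 0.05, beside 6.23% of genes in Efemp2 and 1.69% in Lox.

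The KO less WT difference in Eln was higher at P1 than at E17.5 for Timp4 (by 1.24, adjusted p = 0.046), Adamts9 (1.05, 0.019), Adamts1 (0.96, 0.027) and Mmp2 (0.94, 0.038), beside 0.567% of genes. The Adamts1 arrays show this shift: in Eln AA at E17.5 they read 8.14 and 8.17 in WT and 7.83 and 7.53 in KO, and at P1 7.77 and 7.95 in WT and 8.60 and 8.27 in KO. The KO arrays were thus below the WT arrays in the embryo and above them after birth. For Timp4 the mean differences were -0.83 (AA) and -0.71 (DA) in the embryo, then 0.01 (AA) and 0.92 (DA) after birth. In Efemp2 Adamts1 gave the only call (0.89, 0.036, beside 1.33% of genes), and in Lox there were 0 member calls by limma (0.0978% of genes, 7 members with an unadjusted p under 0.05). Median shifts of all genes in these contrasts were 0.14, 0.10 and -0.20. Without the 4 raised-background arrays the Eln contrast covers AA alone, and none of its member values was called. They were 0.83 for Timp4, 1.15 for Adamts9, 1.05 for Adamts1 and 0.57 for Mmp2. In Efemp2, still over both locations, the Adamts1 value was 0.85. Between models, besides Adamts14, 0 members were called by limma for Efemp2 less Eln (0.554% of genes) and for Lox less Efemp2 (0.0261%). At an unadjusted p under 0.05 stood 11 members (29.7%, beside 8.03% of genes) and 6 members (16.2%, beside 10%).

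The WT arrays answer where along the aorta these genes are normally used. Over the 6 WT comparisons of DA with AA, 10 of the 37 tested members were called, 4 higher in DA and 6 lower (27.0%, against 8.59% of all genes, 4.64% higher and 3.96% lower). Adamtsl3 was higher in DA by 0.76 ± 0.10 (SE, 6 pairs, adjusted p = 2.9e-06), Adamts12 by 0.51 ± 0.11 (0.0014), Adamts4 by 0.32 ± 0.10 (0.046) and Adamts7, which like Adamts12 cuts cartilage oligomeric matrix protein, by 0.30 ± 0.09 (0.034). Lower in DA were Timp4 (-0.72 ± 0.12, 8.7e-05), Mmp23 (-0.48 ± 0.09, 6.8e-04), Adamts16 (-0.47 ± 0.13, 0.019), Adamts1 (-0.44 ± 0.09, 7.1e-04), Adamtsl4 (-0.41 ± 0.11, 0.013) and Adamts9 (-0.39 ± 0.09, 0.0030). The WT arrays of this comparison are the same ones that serve as controls of the KO comparisons.

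**Figure D5:**
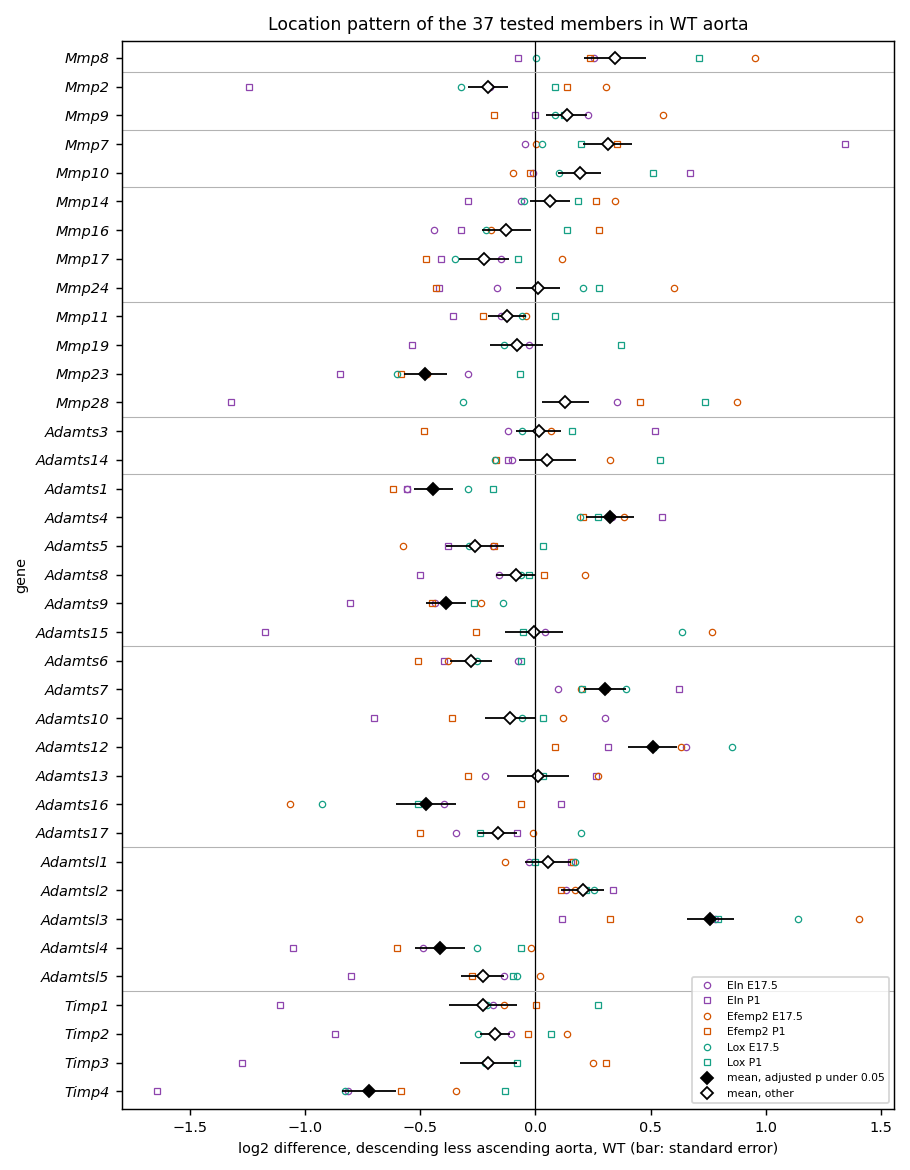
WT descending less ascending difference (log2) of each tested member, with one symbol per model and stage and a diamond with its standard error for the mean of the 6 comparisons. Adamtsl3 and Adamts12 lie to the right of 0 in all 6, and Timp4, Mmp23 and Adamts1 to the left in all 6.

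Adamtsl3 had the smallest adjusted p of the 37 members in this comparison. At E17.5 its WT arrays read 5.42 and 5.15 in AA and 6.13 and 6.00 in DA in the Eln model, 4.78 and 4.62 against 6.23 and 5.98 in the Efemp2 model, and 4.0 and 4.20 against 5.22 and 5.26 in the Lox model. At P1 they read 6.61 and 6.55 against 7.36 and 7.39 in the Lox model, and overlapped in the Eln and Efemp2 models, which hold the raised-background arrays. The E17.5 mean was 1.11 (adjusted p = 4.3e-06). In single pairs it was called in Efemp2 at E17.5 (1.41, 1.06% of genes) and Lox at E17.5 (1.14, 0.502% of genes). In Eln at E17.5 0 members were called by limma (0.176% of genes). There 5 members (13.5%) had an unadjusted p under 0.05, beside 3.66% of genes. Adamts12 was above 0 in all 6 pairs (4.24% of genes) and non-overlapping in 4 (5.57% of genes in 4 or more).

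On the ascending side, Adamts1 and Mmp23 had both DA arrays below both AA arrays in 5 of 6 pairs (1.30% of genes). Mmp23, an MMP held in the membrane by its N-terminal end, read 9.56 and 9.72 in AA and 9.28 and 9.41 in DA in the Eln model at E17.5, and 8.63 and 8.29 against 7.61 and 8.12 in the Lox model at E17.5. Adamts1, 6 and 9 together with Adamtsl4, Mmp23 and Timp4 were lower in DA in 6 of 6 pairs (3.66% of genes). Differences over the 6 pairs ran from 0.19 to 0.55 for Adamts4, from 0.10 to 0.62 for Adamts7, from -1.05 to -0.02 for Adamtsl4 and from -1.07 to 0.11 for Adamts16. Timp4 in WT read 7.53 and 7.17 in AA and 6.23 and 6.84 in DA in the Eln model at E17.5, and 6.43 and 6.32 against 5.63 and 5.47 in the Lox model. In the Lox model at P1 its AA and DA arrays overlapped, at 9.26 and 9.41 against 9.40 and 9.01. Of the 6 brown fat markers 1 was higher in DA and 0 lower, with a list median of 0.43.

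By subfamily, the WT location differences pointed both ways. Of the 6 proteoglycan-cleaving ADAMTS proteases 1 was higher in DA and 2 lower, of the 7 other ADAMTS proteases 2 were higher and 1 lower, and of the 5 ADAMTS-like genes 1 was higher and 1 lower. Of the 4 TIMPs 1 was lower, and Timp1, Timp2 and Timp3 differed by -0.23, -0.18 and -0.20 (adjusted p = 0.38, 0.099 and 0.34). The 2 gelatinases, the 4 membrane-type MMPs, the 2 stromelysin-type genes and the 2 N-proteinases had 0 calls, with Mmp2 at -0.21 (adjusted p = 0.16) and Mmp14 at 0.06 (0.71). The E17.5 mean gave 2 higher and 4 lower members (3.55% of genes), and the P1 mean 1 higher and 5 lower (9.68%), with 0 at P1 once the 4 raised-background arrays were left out (4.26% of genes). Over both stages without those arrays, 7 members were called: Adamtsl3 (0.80), Adamts12 (0.43) and Mmp28 (0.42) higher, and Adamts16 (-0.55), Timp4 (-0.52), Mmp23 (-0.47) and Adamts1 (-0.33) lower. Adamts9 and Adamtsl4 (both -0.28) and Adamts4 and Adamts7 (both 0.29) were then not called. The Adamts4 and Adamts7 calls were also lost in 16 and 11 of the 24 fits without 1 WT array, with differences from 0.25 to 0.40 and from 0.23 to 0.38. That of Adamts16 was lost without Eln WT AA P1 replicate 2 (-0.37), Lox WT AA E17.5 replicate 2 (-0.40) and Lox WT DA P1 replicate 2 (-0.44).

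In the single P1 pairs, 0 members were called by limma in Efemp2 (0.809% of genes) and Lox (0.417%). At an unadjusted p under 0.05 stood 6 members in Efemp2 (16.2%, beside 13.4% of genes) and 4 in Lox (10.8%, beside 5.76%). The Eln P1 pair, with the raised background in both DA arrays, gave 16 calls, 3 higher in DA and 13 lower, beside 30.4% of genes, 8.12% higher and 22.2% lower. All genes together shifted there by a median of -0.23, and in the Lox P1 pair by 0.15.

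Genes that work with the members were followed as 3 lists. Of 19 tested related proteases (ADAM proteases, tolloid-type and serine proteases of the matrix) 1 rose in Eln, Htra1 by 0.65, 2 in Efemp2, Adam8 by 0.62 and Adam9 by 0.47, and 0 in Lox, with 0 lower. Of 18 other inhibitors, activators and clearance genes 2 rose in Eln, Pcsk5, a convertase, by 0.63 and Sfrp2 by 0.38. In Efemp2 3 rose: Plaur, the urokinase receptor, by 1.03, urokinase itself, Plau, by 0.49 and Pcsk5 by 0.32. In Lox Plau rose by 0.46. The medians of this list were 0.16, 0.12 and -0.02, and of the related proteases 0.06, 0.17 and -0.03, beside 0.06, 0.04 and -0.09 for all tested genes.

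Of 18 tested substrates 7 rose and 3 fell in Eln, 6 rose in Efemp2 and 1 rose in Lox, with list medians of 0.34, 0.25 and 0.08. Thbs1, coding for thrombospondin 1, rose in all 3 models, by 0.96, 2.06 and 1.41. Acan, coding for aggrecan, the proteoglycan that Adamts8 is known to cut, rose by 0.51 in Eln and 0.93 in Efemp2, and Vcan, coding for versican, by 0.40 in Eln. Fbn2 (fibrillin 2) rose by 0.73 and 0.72 and Fn1 (fibronectin) by 0.52 and 0.52 in the same models. The falls in Eln were Eln itself, Lum by -0.48 and Dcn by -0.39, both small proteoglycans. Between WT regions, 5 substrates were higher in DA and 4 lower, among them Acan (-1.01) and Vcan (-0.48) lower and Vwf, the substrate of Adamts13, higher by 0.95. Adamts13 itself was above background in no group.

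Markers of other cells and tissues gave fewer calls than those of leukocytes in Efemp2. Of 6 fibroblast markers 1 rose and 3 fell in Eln and 1 fell in Efemp2 (Dpt, by -0.58), of 6 endothelial markers 1 fell in Eln and 3 in Efemp2, and of 5 neuron and Schwann cell markers 2 rose in Eln. Of 5 tested cartilage markers 2 rose in Eln and 1 in Efemp2, and of 6 smooth muscle markers 1 rose in Eln. Heart muscle and mesothelium markers had 0 calls in the 3 KO means, and the 1 erythroid marker on the array did not reach the floor for testing. Between WT regions 4 of the 5 neuron markers, 3 heart muscle, 3 neutrophil and 2 macrophage markers and 1 smooth muscle marker (Myh11, by 0.32) were higher in DA, and 2 of 5 mesothelium markers, 1 heart muscle, 1 cartilage and 1 fibroblast marker were lower. Lum and Dcn stand in both the substrate and the fibroblast list, and Acan in both the substrate and the cartilage list. Their part in the member differences was not tested.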

How the data were processed

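RNA was amplified with a whole-transcriptome kit (NuGEN Ovation Pico WTA), biotin-labelled and hybridised to 48 Affymetrix arrays, per the labels' protocols. Per the submitters' processing notes, the authors summarised probe sets by RMA in Affymetrix Expression Console, and the deposited values are on a log2 scale. The versions of both, and any genome build, are not given in the sources used here. By their value distributions the arrays seem to fall into several normalization sets, with each KO and its WT in 1 set. The labels do not say which arrays were normalized together.

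Probe sets with 1 gene symbol were kept (23521; 1814 had several and 16010 had none). Genes with a group mean of at least 4.94 were tested (15337). limma 3.58.1 in R 4.3.3 fitted 24 group means over all 48 arrays, with 24 residual degrees of freedom and Benjamini-Hochberg adjustment over all tested genes of a contrast, at a threshold of 0.05. The number of arrays limits the precision. Differences on the log2 scale are KO less WT, or DA less AA. Other scalings, filters, blocks and left-out arrays were tried, and their effect is given in the closing section. The fit was tested on simulated data.

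Values are given for the TIMPs, Mmp2 and Mmp14, for up to 8 rising and 8 falling called members of each mean contrast, up to 3 and 3 of each single pair and each difference of effects, and up to 4 called genes of each list; further genes were named after their values were seen. The members and lists were chosen with earlier results of these data known. Promoters come from RefSeq (GRCm38.p6) for 34 members. Replicate numbers were not taken to pair samples. Deviations from the group means correlated between -0.23 and 0.20 for KO and WT arrays of one number. For AA and DA arrays of one number they correlated between -0.15 and 0.29 in WT and between -0.25 and 0.36 in KO. These values do not settle whether such AA and DA arrays share animals.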

Additional observations from a re-analysis of the deposited data

Results flagged for a closer look

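A KO effect that differed between the locations, stages or models, by the test of the difference itself (limma, adjusted p), was seen for 9 results. In the Eln model the KO less WT difference was higher in the descending than in the ascending aorta for Adamts8 (0.98 on the log2 scale) and Mmp2 (0.86), and lower for Mmp7 (-0.97). Mmp7 was above background in no group, and its only Eln group to reach the floor for testing was the raised-background WT DA at P1. Between P1 and E17.5 the Eln effect differed for Timp4 (1.24), Adamts9 (1.05), Adamts1 (0.96) and Mmp2 (0.94), and the Efemp2 effect for Adamts1 (0.89). The Adamts14 effect was lower in Lox than in Eln (-0.91).

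All 9 involve groups at P1 that hold raised-background WT arrays, and 0 were called without those 4 arrays. Of the 3 differences between locations and the 5 between stages, 0 stayed called in every fit that left out 1 array. That of Adamts8 between locations was lost only without replicate 1 of Eln KO AA at P1 (0.85, adjusted p = 0.060). The Adamts14 difference was lost in 24 of the 32 fits without 1 Eln or Lox array. Without the raised-background arrays, locations in Eln were compared at E17.5 alone and stages in AA alone. The Eln contrasts of location and stage are thus not the same ones. Whether the raised background accounts for these differences was not tested further.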

How the results depend on the processing

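No call reversed its direction. The calls kept under every alternative were Adamts8 in the 3 KO means, Adamts12 and Adamts14 in Eln, Timp1 and Mmp9 in Efemp2, Timp4 in Lox, and Adamtsl3, Adamts12, Timp4, Mmp23 and Adamts1 between WT regions. Fitted on the arrays of the comparison alone, 3 members were called in Efemp2 (8 in the fit over all arrays), 5 in Lox (3), 23 in the single pairs (36) and 6 between WT regions (10). For P1 less E17.5 there was 1 call, a lower one, while the 5 of the fit over all arrays were all higher and none of them stayed. Of all genes 196 were called in Efemp2 (584), 767 in Lox (240) and 845 between WT regions (1318). Without the 4 raised-background arrays the counts were 3 members in Eln (6), 18 in single pairs, 0 for DA less AA (3), 0 for P1 less E17.5 and 0 between models (1), and 248 of all genes in Eln (504) and 443 in Lox. With the median of the receptor genes on each array as a covariate, single pairs gave 14 calls. DA less AA then gave 0 and P1 less E17.5 gave 1. Of all genes 217 were called in Eln and 379 in Efemp2, and the Mmp2 call in Eln was lost. Cyclic loess gave 21 in single pairs and 0 for P1 less E17.5, and moved the median difference of all genes in Eln DA at P1 from 0.27 to -0.01. Array centring gave 1 and 0 for P1 less E17.5 and between models, and no filter 3 and 0. Without both Lox KO E17.5 replicate 1 arrays, an alternative chosen after seeing the data, 120 of all genes were called in Lox, 2 members for P1 less E17.5 and 0 between models. The mean of a gene's probe sets gave 0 between models. The replicate numbers were not taken to pair the samples. With the replicate block as a fixed term 2 members were called for P1 less E17.5 and 0 between models. As a random block (correlation 0.091) it gave 5 for DA less AA, 1 for P1 less E17.5 and 0 between models.

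Leaving out 1 array at a time gave 4 to 8 members in Eln, 4 to 8 in Efemp2, 2 to 4 in Lox, 30 to 37 in single pairs, 8 to 15 between WT regions, 0 to 4 for DA less AA, 1 to 9 for P1 less E17.5 and 0 to 2 between models. Of all genes it gave 331 to 872 in Eln, 366 to 860 in Efemp2, 127 to 301 in Lox and 1010 to 2223 between WT regions. The lowest all-gene counts were those without Eln WT AA E17.5 replicate 1, Efemp2 KO AA E17.5 replicate 1, Lox KO DA P1 replicate 1 and Eln WT AA E17.5 replicate 2. A group left with 1 array is assumed to vary like the others. With 2 arrays a group, small differences cannot be resolved, and members below background have only bounds.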
